A study of Danio rerio with 14 samples.

Results

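The embryonic globin genes hbbe3, hbae1 and hbae3 and the erythrocyte ankyrin gene ank1 were followed in the abdomen of zebrafish larvae after knockdown of the deiodinases. Haemoglobin is a tetramer of alpha-type and beta-type chains, each holding a haem group that binds oxygen. Zebrafish carry separate embryonic and adult chains, and the red blood cells of young larvae contain mainly the embryonic ones. hbbe3 codes for an embryonic beta chain, while hbae1 and hbae3 code for embryonic alpha chains. Ankyrin, the product of ank1, anchors the spectrin skeleton of the red blood cell to proteins of its membrane, and in humans its loss causes hereditary spherocytosis. The current RefSeq symbols of the genes called hbae1 and ank1 here are hbae1.1 and ank1a. Red blood cells circulate through every region of the larva, so an abdomen sample holds blood beside its own organs.

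Probes were taken as members when the gene symbol given for their probe or accession in the supplementary list of changed transcripts was one of the 4 genes. This gave 8 of the 13270 probes analysed, namely 2 of hbbe3, 3 of hbae1, 1 of hbae3 and 2 of ank1. The genes were selected on the same contrasts that are described here, so their log2 fold changes (log2FC), counts and ranks are a description and carry no test of their own. Only 888 probes, or 6.69%, had a gene symbol. A probe could receive one only if it stood in the supplementary list of changed transcripts or in the authors' shorter tables of differing probes. Haemoglobin or red blood cell genes without a symbol are therefore not covered. A gene not measured under a name may still have probes on the array.

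Larvae of the WIK strain were compared in 3 groups at 72 h post fertilisation (hpf). D1D2MO larvae had received morpholinos against deiodinases D1 and D2, which produce the active thyroid hormone T3. D3MO larvae had received a morpholino against the dio3b form of D3, which inactivates T3, and SCMO larvae the standard control morpholino. All groups were thus injected embryos, and a morpholino blocks translation only for a time. Each group had 4 biological replicates, and each replicate was a pool of abdomens (20 larvae by the sample labels, a larger number by the methods) with the liver, gut, swim bladder and yolk in them. The RNA pools were run on 14 two-colour arrays, with D1D2MO in 10 channels, D3MO in 8 and SCMO in 10. Single arrays were not analysed here. Each value below is the contrast of 2 groups in the authors' deposited limma fit, with a standard error (SE) recovered from its p-value. Whether the SE and its intervals cover the spread between biological replicates is not given. Both D3MO contrasts had an SE 1.11 times that of D1D2MO against SCMO at the median probe. A probe was called differentially expressed where its adjusted p was below 0.05 and its fold change exceeded 1.5 in either direction.

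hbbe3 had the largest values of the 4 genes in every contrast. In D3MO against SCMO its 2 probes held ranks 1 and 2 from the top among all 13270 probes. Probe A_15_P664166 gave a log2FC of 2.46 ± 0.09 (SE) in D3MO, a fold of 5.52 with a 95% interval from 4.73 to 6.43. Probe A_15_P106583 gave 2.28 ± 0.09, a fold of 4.87. The next probes from the top were 2 probes of the cyclin gene ccng1, at a log2FC of 1.57 and 1.56. The lower hbbe3 interval began at 2.07, above both of those estimates.

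In D1D2MO against SCMO the hbbe3 probes gave a log2FC of 1.18 ± 0.08 and 1.14 ± 0.08 (SE), which are folds of 2.27 and 2.21. They held ranks 15 and 17 from the top there. The 2 probes thus lay within 0.04 of each other on the log2 scale in D1D2MO and within 0.18 in D3MO. The direct contrast of D3MO against D1D2MO gave 1.28 ± 0.09 and 1.14 ± 0.09, folds of 2.43 and 2.21. Both probes were called in all 3 contrasts. Their mean log2 intensity over the arrays was 8.65 and 9.11.

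The alpha chain gene hbae1 was higher in D3MO than in SCMO by 2 of its 3 probes. Probe A_15_P663101 gave a log2FC of 1.14 ± 0.09 (SE) in D3MO, and probe A_15_P142073 gave 1.01 ± 0.16. These are folds of 2.20 and 2.01, at ranks 19 and 30 from the top. The third probe, A_15_P500257, gave 0.49 ± 0.08 and was not called, because its adjusted p of 0.0396 in the limma fit passed while its fold did not. Its 95% interval, from 0.29 to 0.68, lay wholly below that of A_15_P663101, from 0.92 to 1.36. The probes of hbae1 therefore differed in size by up to 0.65 on the log2 scale in D3MO.

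In D1D2MO none of the hbae1 probes was called. They gave a log2FC of 0.57 ± 0.08 for A_15_P663101, 0.64 ± 0.15 for A_15_P142073 and 0.40 ± 0.07 for A_15_P500257 (SE). The first and the last passed the adjusted p but not the fold, whereas A_15_P142073 passed the fold with an adjusted p of 0.0729 in limma. That probe had the largest SE among the 8. In D3MO against D1D2MO the same 3 probes gave 0.57, 0.37 and 0.09, and again none was called. The intervals of A_15_P142073, from -0.02 to 0.76, and of A_15_P500257, from -0.10 to 0.28, held 0.

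RefSeq lists 3 neighbouring hbae1 genes, hbae1.1, hbae1.2 and hbae1.3. Their transcripts are similar, so a probe may read more than 1 of them, and which copies each probe reads was not tested. The mean log2 intensity of the first 2 probes was 13.8 and 13.5, and none was given for the third. Whether spots this bright reached the ceiling of the scanner was not tested.

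hbae3 was measured by 1 probe, A_15_P206756, with a mean log2 intensity of 14.6. This is brighter than the 2 hbae1 probes with a given intensity, and the ceiling of the scanner was not tested here either. It was called higher in D3MO, at a log2FC of 0.65 ± 0.07 (SE) and a fold of 1.57. In D1D2MO it gave 0.35 ± 0.06, a fold of 1.27, with an adjusted p of 0.0423 in limma, and was not called because of its fold. In D3MO against D1D2MO it gave 0.30 ± 0.07 with an adjusted p of 0.0625 and was not called. Of hbbe3, hbae1 and hbae3, the last thus had the smallest gene mean in D3MO, where the means over probes were 2.37 for hbbe3 and 0.88 for hbae1.

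Both ank1 probes were called higher in D3MO. A_15_P105572 gave a log2FC of 0.71 ± 0.09 (SE) and A_15_P112233 gave 0.67 ± 0.07, folds of 1.64 and 1.59. The probes lay within 0.04 of each other there. In D1D2MO they were further apart, at 0.19 ± 0.08 and 0.40 ± 0.07, and neither was called. A_15_P105572 did not pass the adjusted p in D1D2MO (0.225, limma), and A_15_P112233 passed it (0.0316) without the fold. In D3MO against D1D2MO the values were 0.52 ± 0.09 and 0.27 ± 0.07, again with no call. The mean log2 intensity was 11.1 and 11.5. RefSeq has a paralog, ank1b, and neither it nor another ankyrin of the list was measured under a name.

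**Figure D1:**
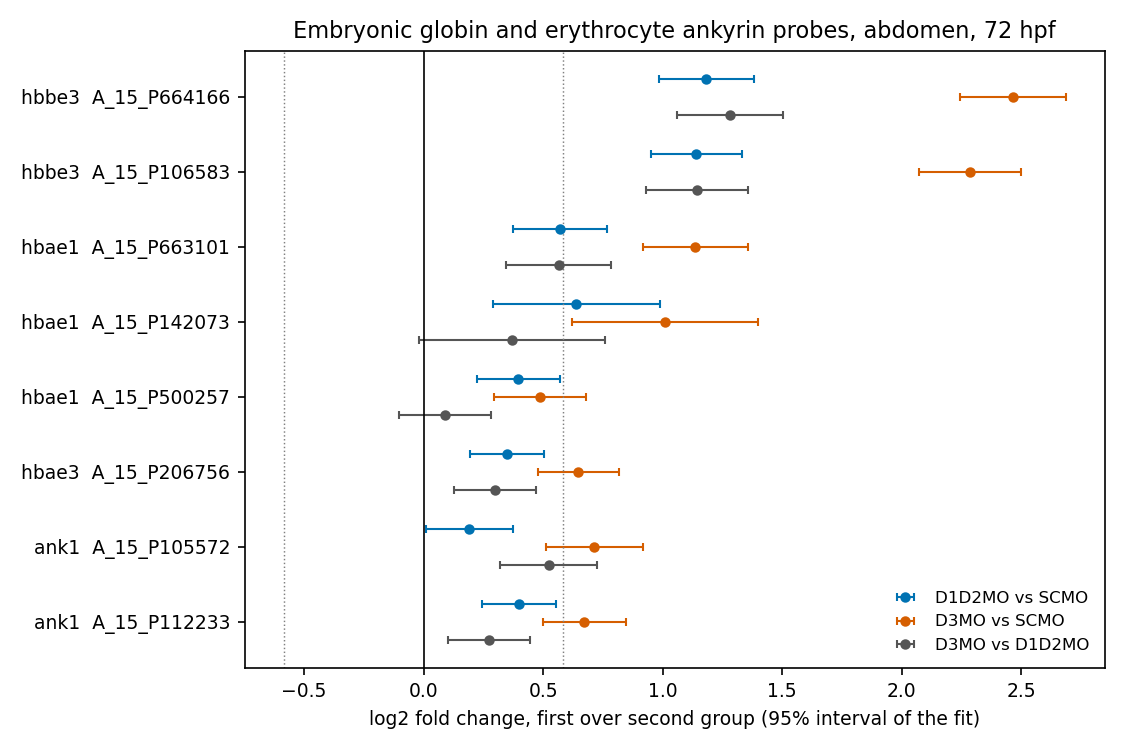
log2 fold change (x axis) of the 8 probes of hbbe3, hbae1, hbae3 and ank1 (y axis) in the contrasts of either knockdown with SCMO and of D3MO with D1D2MO. Points are estimates of the deposited limma fit, bars their 95% intervals, and dotted lines the fold threshold of 1.5 in either direction. The D3MO value of both hbbe3 probes exceeds 2.2, while the hbae3 and ank1 probes lie between 0.65 and 0.71 in D3MO.

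Over the 4 genes, 7 of the 8 probes were called higher in D3MO against SCMO, where 0.821% of all probes were called higher. In D1D2MO against SCMO 2 of the 8 were called higher, both of hbbe3, where 0.761% of all probes were. In D3MO against D1D2MO the same 2 probes were called higher, with 0.889% of all probes. These counts come from the contrasts on which the genes were chosen, and nothing is read from the shares. The 3 contrasts also share samples, since SCMO enters 2 of them and each knockdown enters 2.

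Without the fold threshold 8 of the 8 probes passed the adjusted p in D3MO, where 1.27% of all probes passed and were higher. In D1D2MO 6 of the 8 passed, of all 4 genes, with 2.52% of all probes. In D3MO against D1D2MO 4 of the 8 passed and were higher, of hbbe3, hbae1 and ank1, and 0 passed and were lower, beside 2.16% and 3.41% of all probes. Of the 5 probes called in D3MO and not in D1D2MO, 3 passed the adjusted p in D1D2MO and missed only the fold there. Just inside it lay hbae3 in D3MO, at 0.65, and just outside it hbae1 probe A_15_P663101, at 0.571 in D1D2MO and 0.566 in D3MO against D1D2MO. The median log2FC of the 8 probes was 0.48 in D1D2MO, 0.86 in D3MO and 0.45 between the knockdowns, while all probes had medians of -0.0008, -0.01 and -0.007. More red blood cells in the abdomen and more of these transcripts per red blood cell cannot be told apart in such bulk samples.

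**Figure D2:**
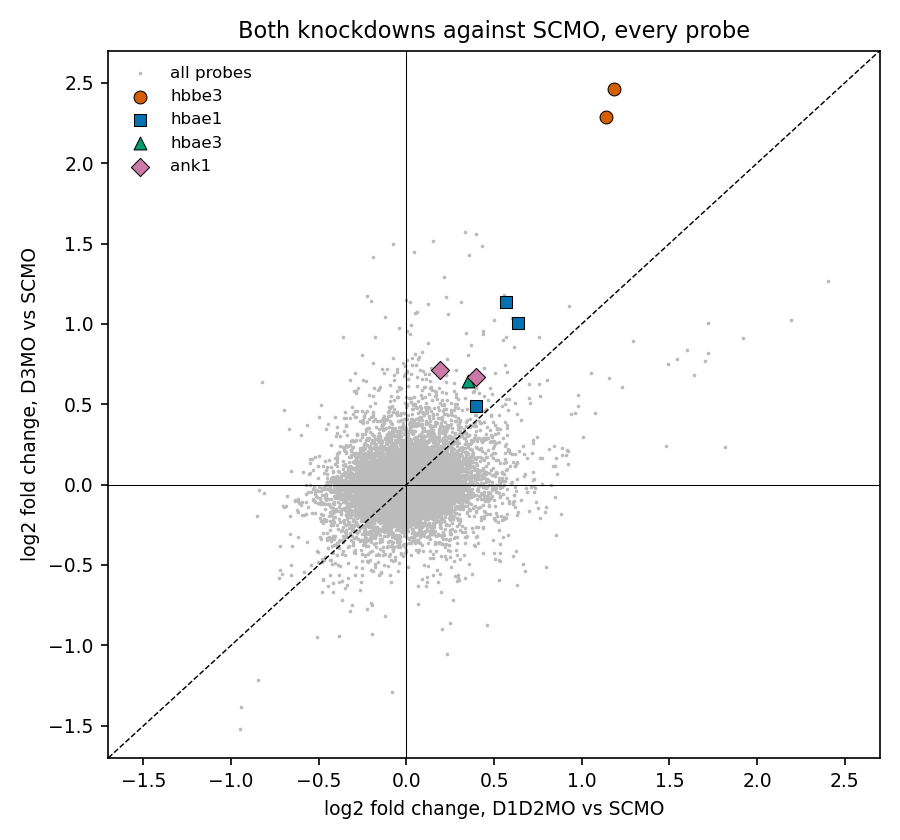
log2 fold change in D3MO against SCMO (y axis) and in D1D2MO against SCMO (x axis) for all 13270 probes (grey), with the 8 probes of hbbe3, hbae1, hbae3 and ank1 in colour. The dashed line marks equal values in both knockdowns, which share their SCMO samples. The 8 coloured points lie above it, and the 2 hbbe3 probes stand at the top of the plot.

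The patterns over both knockdowns differed in how many other probes came near them. Distance was taken in the plane of the 2 knockdown log2FC, from the mean of a gene's probes. For hbbe3 the nearest other probe was 1 of ccng1, at a distance of 1.12, whose log2FC was 0.40 in D1D2MO larvae and 1.56 in D3MO larvae. Next came a probe of zgc:91930 at 1.15 (0.43 and 1.49) and another ccng1 probe at 1.16 (0.33 and 1.57). No other probe lay within 0.2 of hbbe3. Around hbae1 13 probes lay within 0.2, and the nearest with a symbol was 1 of atp5b, a subunit of the mitochondrial ATP synthase, at 0.08. The hbae1 mean lay at 0.54 in D1D2MO and 0.88 in D3MO. Its own probes A_15_P663101 (0.57 and 1.14) and A_15_P500257 (0.40 and 0.49) lay further than 0.2 from that point. Around hbae3 48 probes lay within 0.2, with the proteasome subunit gene psmb4 nearest at 0.02 and the aquaporin gene aqp8b at 0.04. Around ank1 48 probes lay within 0.2 as well, with the junctophilin gene jph1b nearest at 0.02 and the heart myosin light chain gene myl7 at 0.07. The ank1 probes themselves, at 0.19 and 0.40 in D1D2MO, lay further from their own mean of 0.29 than these neighbours did. A distance thus describes the mean over a gene's probes and not each probe.

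The other haemoglobin chains of the array were represented under a name by 2 genes of 17 in the list. hbbe1.1, an embryonic beta chain gene, is listed under the older symbol si:busm1-118j2.5 and was called higher in D3MO by both of its probes. A_15_P169743 gave a log2FC of 0.94 ± 0.12 (SE) and A_15_P753227 gave 0.65 ± 0.10 in D3MO. In D1D2MO they gave 0.44 ± 0.11, which was not called, and 0.80 ± 0.09, which was called. The estimates of the knockdowns thus stood in a different order at each probe. Neither probe was called in D3MO against D1D2MO, at 0.50 ± 0.12 and -0.15 ± 0.10. The interval of A_15_P753227 in that contrast, from -0.38 to 0.08, held 0, so its order is not settled. Their mean log2 intensity was 15.5 and 10.2. Whether the brighter spot reached the ceiling of the scanner was not tested.

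hbaa2, an adult alpha chain gene listed as si:ch211-5k11.6, was not called in any contrast. Its probe A_15_P621066 gave 0.12 ± 0.09 in D1D2MO larvae and 0.12 ± 0.10 in D3MO larvae (log2FC ± SE). The 95% interval in D3MO ran from -0.12 to 0.36, below those of the called embryonic globin probes in D3MO. It overlapped that of the uncalled hbae1 probe A_15_P500257, from 0.29 to 0.68. No mean intensity was given for the hbaa2 probe. The adult chain was thus seen through 1 probe only, and the other adult chains were not measured under a name. Outside red blood cells, the cytoglobin gene cygb1 was called lower in D1D2MO (-0.65 ± 0.10) and gave -0.38 ± 0.11 in D3MO without a call.

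In the RefSeq annotation of assembly GRCz12tu the globin genes stand in 2 clusters on different chromosomes. hbbe3 lies in the smaller one, next to hbae4 and hbbe2, in a run of 4 embryonic chain genes. hbae1.1 and hbae3 lie in the larger one, which has 11 genes with a haemoglobin chain symbol, and hbbe1.1 is the direct neighbour of hbae1.1. hbaa2 stands in that larger cluster too. The larger cluster thus held the called genes hbae1, hbae3 and hbbe1.1 and the gene hbaa2, which was not called.

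Genes of iron handling showed other patterns. Of 23 genes in the list 3 were measured under a name, and none was called higher in either knockdown. The ferritin heavy chain gene fth1a, whose product stores iron, gave a log2FC of 0.55 ± 0.08 and 0.57 ± 0.07 (SE) in D1D2MO at its 2 probes, just under the fold threshold. In D3MO they gave -0.06 ± 0.08 and -0.08 ± 0.07. Both fth1a probes were called lower in D3MO against D1D2MO, at -0.61 ± 0.08 and -0.65 ± 0.07, the opposite sign of hbbe3 in that contrast. The iron transporter gene slc11a2 gave 0.23 ± 0.13 in D1D2MO and 0.64 ± 0.15 in D3MO, which passed the fold but had an adjusted p of 0.106 in limma. The transferrin gene tfa, made in the liver, was called lower in D1D2MO by 2 of its 3 probes, at values between -0.72 and -0.71 for all 3. In D3MO its probes gave -0.53, -0.38 and -0.56, and none was called. The last of these passed the adjusted p (0.0400, limma) and missed only the fold.

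The remaining red blood cell lists held few named genes. The enzyme genes ca2, a carbonic anhydrase, and prdx2, a peroxiredoxin, gave a log2FC of 0.34 ± 0.07 and 0.57 ± 0.08 (SE) in D1D2MO, and 0.29 ± 0.08 and 0.35 ± 0.09 in D3MO, without a call. In D1D2MO prdx2 passed the adjusted p (0.0207, limma) and missed only the fold. The membrane protein gene rhd gave -0.13 ± 0.32 in D1D2MO and 0.17 ± 0.35 in D3MO, with the widest intervals of these genes. The transcription factor gene klf3 gave 0.29 ± 0.08 in D1D2MO and -0.33 ± 0.09 in D3MO, and was called lower in D3MO against D1D2MO at -0.62 ± 0.09. None of the 22 genes of haem synthesis and export was measured under a name.

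Over the 7 red blood cell lists, 9 of 136 genes were measured under a name, by 13 probes that exclude the 8 described first. In D1D2MO 1 of the 9 was called higher (hbbe1.1) and 1 lower (tfa). In D3MO 1 was called higher (hbbe1.1) and 0 lower, and in D3MO against D1D2MO 0 were called higher and 2 lower (fth1a and klf3). Of all probes 0.098% were called lower in D1D2MO, 0.264% in D3MO and 1.27% in D3MO against D1D2MO, beside the shares called higher of 0.761%, 0.821% and 0.889%. A gene counted as called if any of its probes was, so these shares of probes are not on the same footing as the gene counts. The 9 genes also had names only through lists of changed probes. The median of the 13 probes was 0.29 in D1D2MO, 0.12 in D3MO and 0.003 between the knockdowns. The named genes of these lists beyond the globins thus did not move one way in D3MO. In D3MO the 6 probes below 0 were those of fth1a, tfa and klf3, of which tfa also stood in the liver list. The probes of ca2, prdx2, rhd and slc11a2 were above 0, at 0.29, 0.35, 0.17 and 0.64.

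**Figure D3:**
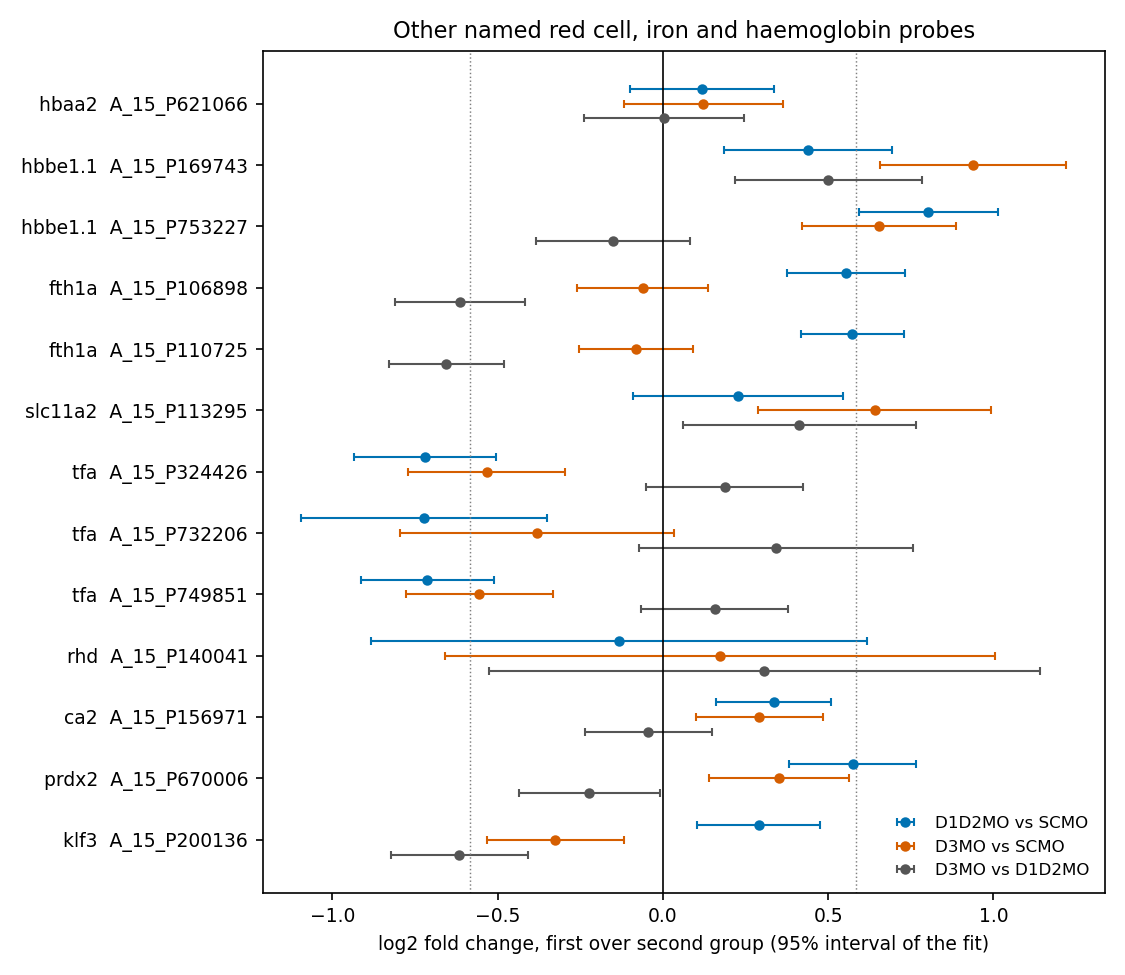
log2 fold change (x axis) of the other named haemoglobin, iron, membrane, enzyme and transcription factor probes of red blood cell lists (y axis) in the 3 contrasts, with 95% intervals of the deposited limma fit and the fold threshold as dotted lines. Both hbbe1.1 probes lie to the right of the threshold in D3MO against SCMO, while hbaa2 stays near 0 and both fth1a probes are at -0.06 and -0.08 in D3MO.

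Markers of other cells in the abdomen moved in both directions beside the globins. Of the heart muscle list 3 of 14 genes were measured under a name, and each was called higher in D3MO. Of all probes 0.821% were called higher there. Names came only from lists of probes that changed in some body region or contrast. This count is therefore only a description. The myosin light chain genes myl7 and cmlc1 gave a log2FC of 0.63 ± 0.10 and 0.69 ± 0.08 (SE) in D3MO, and 0.27 ± 0.09 and 0.13 ± 0.07 in D1D2MO without a call. The actin gene actc1a, also expressed in skeletal muscle, was called in D1D2MO by its 3 probes, between 0.98 and 2.40, and in D3MO by 1 of them, at 1.26. Heart tissue is not among the organs the methods list for the abdomen.

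Of the liver list 7 of 18 genes were measured under a name. In D1D2MO 1 of them was called higher and 2 lower, beside 0.761% and 0.098% of all probes. In D3MO 0 were called higher and 2 lower, beside 0.821% and 0.264% of all probes. As for the heart list, names came only from lists of changed probes, so these counts are only a description. The fatty acid binding protein gene fabp10a was called lower by both probes, at a log2FC of -1.38 and -1.52 in D3MO and -0.94 and -0.95 in D1D2MO, and its probes were the lowest of all 13270 in both knockdowns. tdo2a, for an enzyme of tryptophan breakdown, was called lower in D3MO at -0.67, against -0.42 without a call in D1D2MO. rbp4, a retinol carrier, was called higher in D1D2MO by 2 of 3 probes and gave between -0.19 and 0.07 in D3MO. The gut villin gene vil1, the only named gene of 19 in the list for gut and exocrine pancreas, was called lower in D3MO at -0.95 and gave -0.51 in D1D2MO. Of the yolk and lipid carriage list 3 of 14 genes were measured under a name, and none was called in either knockdown against SCMO. The apolipoprotein gene apoeb was called higher in D3MO against D1D2MO at probes A_15_P737206 (0.74) and A_15_P747901 (0.63), but not at A_15_P542322 (0.59). In that contrast rbp4, between -0.82 and -0.61, and actc1a, at -1.14 by probe A_15_P153676, were called lower. Of all probes 0.889% were called higher and 1.27% lower there. Neither white blood cells nor endothelium had a marker measured under a name. The part of these tissue differences in the globin and ank1 values was not tested.

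**Figure D4:**
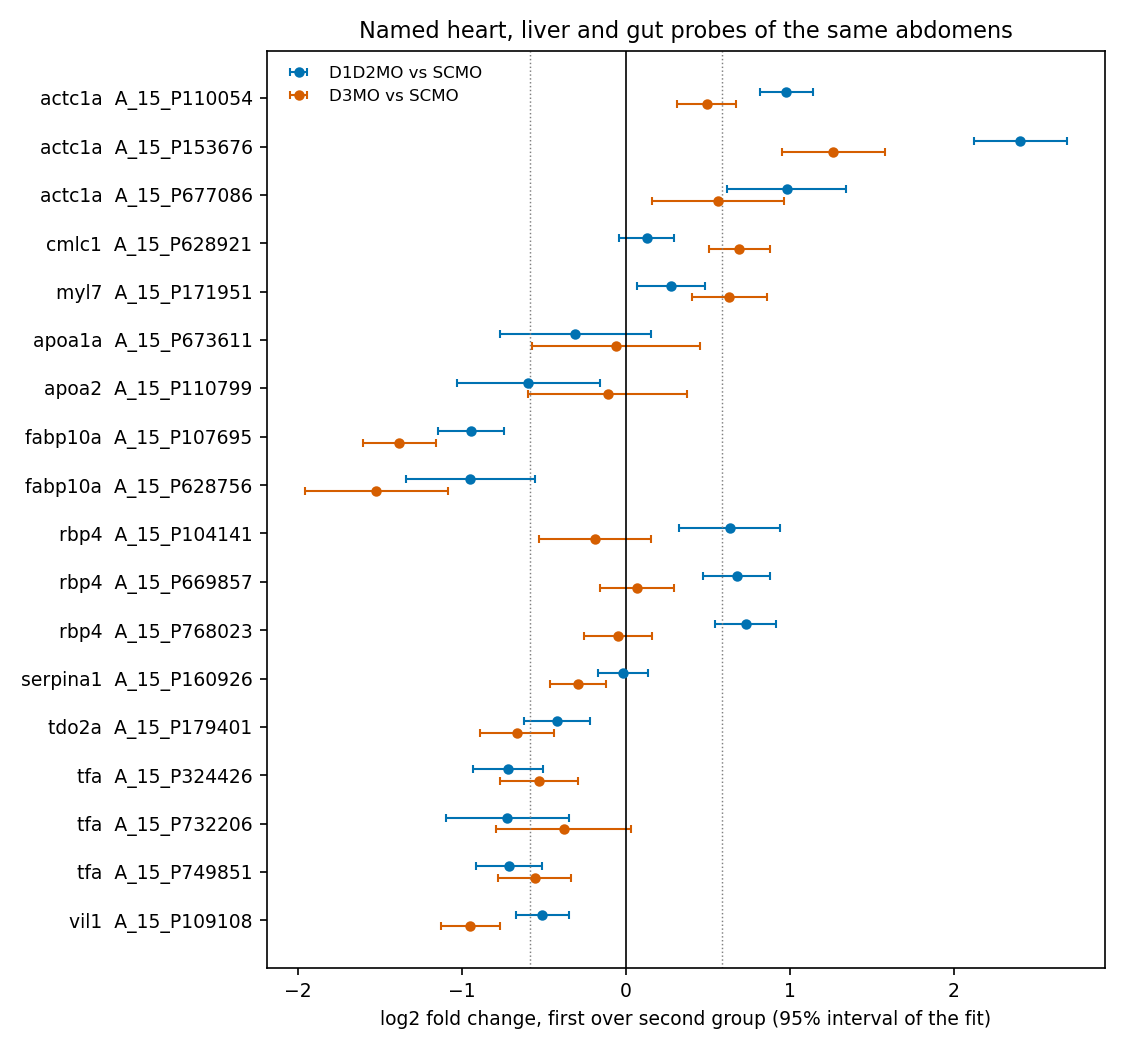
log2 fold change (x axis) of the named heart muscle, liver and gut probes of the same abdomen samples (y axis) in D1D2MO and D3MO against SCMO, with 95% intervals of the deposited limma fit and the fold threshold as dotted lines. myl7 and cmlc1 are higher in D3MO, while fabp10a lies between -1.52 and -0.94 in the 2 knockdowns.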

How the data were processed

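Abdomen RNA of D1D2MO, D3MO and SCMO larvae was measured on 14 two-colour Agilent arrays. The authors scanned them with GenePix, left out spots near background on every array, used normal-exponential background correction and loess within arrays, and fitted limma (version not given in the sources used here). Deposited log2 fold changes and p-values of 13271 lines are those of the authors' own comparisons, and 1 control was left out. Values per array were not used here. The authors' shorter tables of 149, 185 and 346 probes add the adjusted p, the mean log2 intensity and the moderated t, a score.

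The Benjamini-Hochberg adjustment was recomputed over 13270 probes in each contrast. The SE is the log2 fold change over the t recovered from p at 6.93 total degrees of freedom, and 95% intervals follow from it. Whether this SE covers the spread between biological replicates or only that between arrays is not given. Each group had 4 biological replicates in 8 or 10 channels, so channels and arrays are not independent replicates. Of 888 named probes, the supplementary list of changed transcripts named 671 by probe and 113 by accession, and RefSeq accessions named 104. Its values were not used.

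The members and gene lists were chosen with earlier results of these data known. Genes named are all members, measured genes of the red blood cell lists and called genes of the marker lists. The 3 nearest probes by pattern are named where they had a symbol, as are the highest probes in D3MO up to 2 beyond hbbe3. Recovery of the SE and the adjusted p were checked on made data with known changes, drawn with the same SE and degrees of freedom. This tests the code only, not the authors' fit or the naming of probes. Alternatives were other thresholds, adjustments, centring and averaging of probes. Python 3.11.15, numpy 2.4.6, pandas 2.3.3, scipy 1.17.1 and matplotlib 3.10.9 were used.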

Additional observations from a re-analysis of the deposited data

Results flagged for a closer look

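Among the 8 globin and ank1 probes and the 13 probes of the red blood cell lists, 7 differed between the 2 knockdowns. This is by the direct contrast of D3MO against D1D2MO (adjusted p under 0.05 in limma). There were 4 biological replicates per group, but whether the p covers their spread or only that between arrays is not given. Of all probes 2.16% passed this adjusted p and were higher in D3MO, and 3.41% passed it and were lower. Of the 7, the 4 that belong to the globins and ankyrin were higher in D3MO. hbbe3 gave 1.28 (adjusted p = 0.0026) and 1.14 (0.0031), hbae1 probe A_15_P663101 gave 0.57 (0.0224) and ank1 probe A_15_P105572 gave 0.52 (0.0223), on the log2 scale. The genes were chosen on these contrasts, so this is no independent support. The list probes, too, had names only through lists of changed probes. The other probes of hbae1 and ank1 did not pass.

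The other 3 probes were lower in D3MO than in D1D2MO. fth1a gave -0.61 (adjusted p = 0.0133) and -0.65 (0.0079), and klf3 gave -0.62 (0.0146). Against SCMO, the fth1a values in D3MO were -0.06 and -0.08 with intervals that held 0, beside 0.55 and 0.57 in D1D2MO, which passed the adjusted p without the fold. klf3 passed the adjusted p against SCMO in neither knockdown (0.152 in D3MO and 0.108 in D1D2MO, limma).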

How the results depend on the processing

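Of 48 recomputed counts 31 stayed within 1.5 times their value. Of 36 recomputed mean log2 fold changes of the 4 genes 31 moved by less than 1 SE. Many of the 36 could not move that far. Centring shifted them only by the median of all probes (-0.0008, -0.01 and -0.007 in the 3 contrasts). hbae3 had 1 probe, and for the 2 probes of hbbe3 and of ank1 the median is the mean. The 31 of 36 therefore says little about stability. No sign changed, but none could, since all 8 probes were above 0 in every contrast. Centring on the median, an FDR of 0.1 and 1 adjustment over the 3 contrasts moved no count of called probes or genes by more than 1.5 times. Averaging by accession left 6 values in place of the 8 probes, so its counts are not on the same footing. It took the mean log2 fold change of the joined probes but kept their smallest p. A call can thus join the p of 1 probe to the fold of another. For D1D2MO 3 of the 6 were called, beside 2 of the 8 probes. For D3MO it was 5 of 6 beside 7 of 8, and between the knockdowns 2 of 6 beside 2 of 8. These are among the 31 counts by number alone, not by share. Averaging changed no count of the 9 other genes of the red blood cell lists. At an FDR of 0.01, 3 of the 8 globin and ank1 probes were called in D3MO (7 at 0.05). Of the 9 other genes of the red blood cell lists 0 passed in D1D2MO, 0 in D3MO and 1 between the knockdowns. Without the fold threshold 6 of the 8 probes were called in D1D2MO and 4 in the direct contrast, all higher. Of all probes 2.52% and 2.16% passed and were higher there. Of the 9 genes 4 were called in D1D2MO, namely hbbe1.1, fth1a and prdx2 higher and tfa lower. In D3MO 2 were called, hbbe1.1 higher and tfa lower. At a log2 threshold of 1, 4 of the 8 probes were called in D3MO, and 0 of the 9 genes in any contrast. With Bonferroni adjustment 2 of the 8 probes were called in D3MO and 1 in the direct contrast. Again 0 of the 9 genes were called in any contrast. The share of all probes was not computed at an FDR of 0.01, a log2 threshold of 1 or Bonferroni adjustment. Nor was the share passing and lower without the fold threshold in either contrast with SCMO. Nothing is therefore read from the counts at these settings.

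The other 5 values, of hbae1 and ank1, moved with the choice of probe. The D3MO value of hbae1 was 0.88 as the mean over 3 probes, 1.14 at the probe with the smallest p and 1.01 as their median. At the probe with the smallest p, hbae1 in D3MO against D1D2MO was 0.57, against 0.34 as the mean, ank1 in D1D2MO was 0.40 against 0.29, and ank1 in D3MO against D1D2MO was 0.52 against 0.40. Leaving out replicates could not be run, because only contrasts were used here. No paired analysis was possible because the contrasts used here carry no replicate numbers, and values per array were not used here. Names cover few probes, so the red blood cell lists were seen through 9 of 136 genes.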
